A study of Mus musculus with 18 samples.

Results

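Car1 and Car2, the mouse genes for carbonic anhydrases 1 and 2, were followed through 4 groups of haematopoietic cells by RNA level, DNA methylation and the histone mark H3K36me3. They were found as the rows of the FPKM table with these symbols, 2 of 53946 genes, and both passed the filter on low counts that left 16233 genes for testing. The pair was chosen by its RNA levels in these libraries. Those levels and their differences are therefore given as a description with no test, and tests are given only for other genes.

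All 4 groups came from mice of the C57BL/6 strain, with 3 RNA libraries each. The WT group was haematopoietic stem and progenitor cells (HSPCs) of C57BL/6 bone marrow. The NHD13 group was bone marrow HSPCs of mice that carried the Nup98-HoxD13 transgene, a fusion gene of myeloid disease, together with floxed Setd2 alleles (Setd2 flox/flox). The KO group was bone marrow HSPCs of NHD13 transgenic mice in which Setd2 had been deleted by Mx1-Cre, a recombinase under an interferon-inducible promoter. The AML group was C-Kit+ spleen cells of the same NHD13/Setd2 KO genotype at the leukemia stage. Setd2 encodes the enzyme that places trimethylation on lysine 36 of histone H3. AML differed from KO in stage, tissue and sort at the same time, and these cannot be told apart. One bisulfite library per group and 2 H3K36me3 libraries, 1 from leukemic C-Kit+ spleen cells of NHD13 mice and 1 from those of NHD13/Setd2 KO mice, cover the locus. Ages, the promoter of the transgene and whether the floxed mice carried Mx1-Cre are not stated in those sources that were used. Nor do they say that the libraries within a group were taken from different mice, so a p-value reflects library-to-library spread, which may be technical.

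Carbonic anhydrases are zinc enzymes that interconvert carbon dioxide and bicarbonate with a proton. Car1 and Car2 are cytosolic forms and are among the most abundant proteins of red cells after haemoglobin. There they work beside the anion exchanger Slc4a1 and gas channels in carbon dioxide transport. Both genes switch on early in erythroid commitment, at the erythroid progenitor stage. Car2 is the faster enzyme and also acts in osteoclasts and kidney. In the mouse the genes lie in one cluster with Car3 and Car13, and Car1 and Car2 are transcribed in opposite directions.

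Library totals ran from 18673704 to 28127686 counts. The chi-square statistic between libraries of 1 group was 1.97 to 30.4 times its degrees of freedom, and the highest value was between WT replicates 1 and 2. Mean Xist, the RNA of the inactive X chromosome, was 174 CPM (counts scaled to a library of 1e+06 after TMM) in WT and 94.8 CPM in NHD13 but 0.0636 in KO and 0.0142 in AML. The Y-linked gene Eif2s3y was at 0 in WT, 0.0165 CPM in NHD13, 59.9 CPM in KO and 68.4 CPM in AML. The sex of the mice and the KO label therefore cannot be told apart. Setd2 itself was 33.5 ± 1.72 CPM in NHD13 and 32.4 ± 2.91 CPM in KO (SD, n = 3), a log2 difference of −0.05 ± 0.08 (SE; edgeR adjusted p = 0.685). WT held 42.1 ± 4.33 CPM, and the AML libraries, labelled with the same deletion, held 183 ± 4.14 CPM, a log2 difference from KO of 2.50 ± 0.08 (edgeR adjusted p = 1.64e-15). Setd2 RNA was therefore not called lower in KO and was higher in AML, although both groups carry the deletion label. A count over the whole gene does not show whether an exon was removed, and the label is not tested by it. KO and AML stand below for the libraries so labelled. The stem and progenitor marker Kit was present in all groups, at means of 100 CPM in WT, 73.6 in NHD13, 101 in KO and 215 in AML. Cd34 and Flt3, further markers of the sorted cells, averaged 388 and 122 CPM in WT, against 12.6 and 1.05 CPM in NHD13.

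Car1 was among the most abundant transcripts of all 9 HSPC libraries and was scarce in all 3 AML libraries. In CPM it stood at 1471, 1466 and 1528 in WT, at 1878, 2089 and 1595 in NHD13, and at 2019, 1956 and 1878 in KO. The AML libraries held 5.21, 6.69 and 6.12 CPM. The AML group lay far below the others with no overlap, WT lay below NHD13 and KO, and NHD13 and KO overlapped, an order of the HSPC groups that holds in CPM but not in FPKM. These levels rest on 121 to 157 counts per AML library, against 32267 to 51413 in the HSPC libraries. Means were 1488 ± 34.6 CPM in WT, 1854 ± 248 in NHD13, 1951 ± 70.4 in KO and 6.01 ± 0.743 in AML (SD, n = 3). The gene (ENSMUSG00000027556) spans chromosome 3, 14766214 to 14808365, in GRCm38.p6.

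Car2, the faster of the pair, had the same order of groups with a higher floor in AML. Its CPM was 1493, 1393 and 1428 in WT, 2336, 2495 and 2003 in NHD13, and 2612, 2469 and 2345 in KO. In AML it was 42.9, 37.1 and 43.9 CPM. AML was again below all other libraries and WT was below NHD13 and KO, while NHD13 and KO shared part of their range. Means were 1438 ± 50.6 CPM in WT, 2278 ± 251 in NHD13, 2475 ± 133 in KO and 41.3 ± 3.67 in AML (SD, n = 3). Car2 kept 871 to 1125 counts in each AML library. The gene (ENSMUSG00000027562) spans chromosome 3, 14886269 to 14900770.

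**Figure D1:**
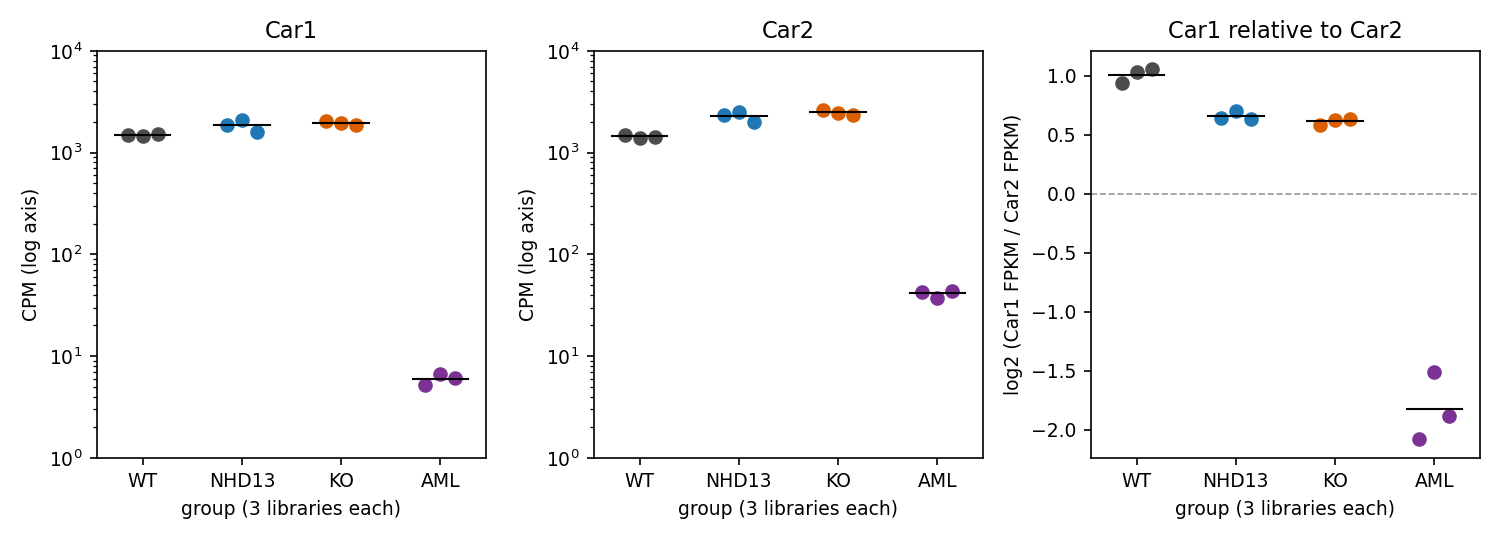
Car1 and Car2 in the 12 RNA libraries, as CPM on a log axis for each gene and as the log2 ratio of their FPKM values. Points are libraries and lines are group means (for the ratio, the mean of the log2 values). The 3 AML libraries lie below all others in each panel, and the ratio is above 0 in the HSPC libraries and below 0 in AML.

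Differences between groups were small among the HSPC groups and large between KO and AML. The fitted log2 difference of NHD13 from WT was 0.32 ± 0.08 for Car1 (SE), a level 1.25-fold higher. For Car2 it was 0.66 ± 0.08, or 1.58-fold higher. Without WT replicate 1, which stood apart from the other WT libraries, the differences were 0.31 and 0.69. This direction depended on the scale for Car1: on log2(FPKM + 1) Car1 was lower in NHD13 by a difference of −0.076 and Car2 was higher by 0.27. On that scale the median of all genes was −0.21, against −0.04 in the edgeR fit, so both genes lay above the median gene on either scale. KO and NHD13 differed by 0.07 ± 0.08 for Car1 and 0.12 ± 0.08 for Car2 on the log2 scale, and by 0.27 and 0.31 on log2(FPKM + 1), where the median of all genes was 0.08. In the edgeR fit the Car1 difference was −0.028 without NHD13 replicate 3, its lowest NHD13 library. AML lay below KO by a log2 difference of −8.34 ± 0.12 for Car1, a 324-fold lower level, and of −5.91 ± 0.10 for Car2, a 59.9-fold lower level. Against WT, the AML mean was 248-fold lower for Car1 and 34.8-fold lower for Car2. The 3 differences share libraries, since NHD13 and KO each enter a pair of them. In bulk samples such as these, fewer cells that make a transcript and less transcript per cell cannot be told apart.

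Few transcripts this abundant were so low in AML. Of 133 genes with a KO mean of at least 1000 CPM, 1 was lower in AML by 100-fold or more, and that was Car1. By 10-fold or more, 6 were lower, and the median log2 difference over the 133 was −1.54. Car2 came second, followed by the mitochondrial ribosomal RNA mt-Rnr2 (−4.30), the NF-kappa-B inhibitor Nfkbia (−4.26), the glutathione peroxidase Gpx1 (−4.04) and the ferritin heavy chain Fth1 (−3.89). Among all 16233 genes tested, Car1 ranked 26th and Car2 184th by the size of the AML deficit. The pair was chosen by its RNA levels in these libraries, so these places describe it and are no independent support. Car1 took 0.173% to 0.187% of all counts in KO and 0.000648% to 0.000816% in AML. Car2 took 0.216% to 0.243% in KO and 0.00453% to 0.00547% in AML.

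The balance between the enzymes also differed between groups. Per transcript length, in FPKM, Car1 was at 1270 ± 32.4 in WT, 1211 ± 150 in NHD13, 1451 ± 58.9 in KO and 5.95 ± 0.688 in AML (SD, n = 3). Car2 was at 633 ± 34.3 FPKM in WT, 767 ± 79.7 in NHD13, 949 ± 54.7 in KO and 21.1 ± 2.10 in AML. In FPKM the KO libraries lay above all NHD13 libraries, for Car1 at 1386 to 1502 against 1044 to 1335 and for Car2 at 892 to 1001 against 675 to 822, where they overlapped in CPM. WT and NHD13 overlapped in FPKM for Car1 but not for Car2. By this measure Car1 ranked 28th to 39th among all genes in the WT libraries and 6606th to 7345th in the AML libraries, and Car2 ranked 77th to 105th and 2593rd to 3092nd.

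The ratio of Car1 to Car2 FPKM was 1.91, 2.04 and 2.08 in the WT libraries. It was 1.56, 1.62 and 1.55 in NHD13 and 1.50, 1.54 and 1.55 in KO. In AML it was 0.236, 0.350 and 0.271. Car1 was thus the more abundant transcript in every HSPC library and Car2 in every AML library, by 3.60 ± 0.694-fold (SD, n = 3). The WT ratios did not overlap any other group, whereas the NHD13 and KO ratios overlapped.

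The other genes of the family were minor beside Car1 and Car2 in the HSPC groups. In AML they summed to 40.5 to 45.5 CPM, beside a mean of 41.3 CPM for Car2. Car3 was at 6.45 FPKM there and Car1 at 5.95 FPKM. None of the 14 listed reached a mean of 10 FPKM in any group, and the highest was Car9, a membrane form induced by hypoxia, at 8.88 FPKM in WT. Of the 14, 9 passed the count filter. Between NHD13 and WT 5 of the 9 fell and 0 rose, with a median log2 difference of −1.04 (Car3, Car5b, Car8, Car12 and Car13), while 54.0% of all genes were called in that comparison (25.3% higher and 28.7% lower). Between KO and NHD13 4 rose and 1 fell, with a median of 1.20 (Car3, Car8, Car12 and Car13 rose and Car7 fell), beside 40.9% called overall (20.6% higher and 20.3% lower). Between AML and KO 2 rose and 4 fell, with a median of −0.77 (Car12 and Car14 rose and Car7, Car8, Car9 and Car13 fell), beside 82.4% called overall (42.8% higher and 39.5% lower). The medians of all tested genes in the 3 comparisons were −0.04, 0.02 and 0.07. Without Car14, which had 0 counts in NHD13, the family medians were −1.02, 1.11 and −0.82.

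Car3 and Car13 are cytosolic relatives from the same cluster as Car1 and Car2. In CPM they had another order of HSPC groups than the pair and among those groups were lowest in NHD13. Car3 fell from 12.5 ± 2.14 CPM in WT to 3.80 ± 0.432 in NHD13 and was 16.1 ± 0.950 in KO (SD, n = 3; log2 −1.72 ± 0.14 with edgeR adjusted p = 6.1e-09, then 2.08 ± 0.14 with adjusted p = 5.91e-10). In AML it was 14.9 ± 0.454 CPM, a log2 difference from KO of −0.10 ± 0.12 (edgeR adjusted p = 0.422). In those same AML libraries Car1 and Car2 were far below their KO levels. Per length, Car2 was still above Car3 there (21.1 against 6.45 FPKM), and Car1 was at 5.95 FPKM. Car13 fell from 7.21 CPM in WT to 3.48 in NHD13 (log2 −1.04 ± 0.18, edgeR adjusted p = 7.47e-05), rose to 8.05 in KO (1.20 ± 0.18, adjusted p = 2.48e-05) and fell to 2.40 in AML (−1.74 ± 0.18, adjusted p = 5.54e-08).

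Among the membrane forms, Car9 fell from 16.0 CPM in KO to 8.72 in AML (log2 −0.88 ± 0.12, edgeR adjusted p = 2.58e-06). Car12 rose from 2.33 to 14.3 CPM (2.60 ± 0.20, edgeR adjusted p = 4.15e-10). Car14 was called higher in AML on 80 counts there against 1 in KO, a ratio of 73.4 with a 95% counting interval of 12.8 to 2933. Car15, which did not pass the filter, had 37 counts in AML and 0 in KO, which is at least 11.3-fold higher when the KO group is set to the floor of 3 counts in all. These levels in AML were all far below the HSPC levels of Car1 and Car2. Within AML, Car12 and Car9 were above Car1 in CPM (14.3 and 8.72 against 6.01). In FPKM they were below it (2.33 and 4.68 against 5.95). Car5b, Car8 and Car11 had group means of at most 0.697, 0.515 and 0.587 CPM, and calls on Car5b and Car8 rest on at most 18 counts per library. Car7, at 2.58 CPM in WT and 0.584 in AML, fell in AML (log2 −1.21 ± 0.27, edgeR adjusted p = 0.000427). Car4, Car5a, Car6 and Car10 did not pass the filter.

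Bicarbonate, protons and carbon dioxide, which carbonic anhydrases interconvert, cross membranes through transporters and channels, and 15 of 19 such genes were tested. Between NHD13 and WT 10 rose and 3 fell (median log2 0.92), between KO and NHD13 1 rose and 7 fell (median −0.22), and between AML and KO 9 rose and 6 fell (median 1.07). The shares of all genes called higher and lower were 25.3% and 28.7%, 20.6% and 20.3%, and 42.8% and 39.5%, so the 6 of 15 that fell in AML were near the background. Rhd and Rhag belong to the Rh protein complex of the red cell membrane. Rhd fell from 148 to 4.44 CPM (log2 −5.06 ± 0.10, edgeR adjusted p = 2.56e-18) and Rhag from 107 to 4.44 CPM (−4.58 ± 0.10, adjusted p = 1.07e-17). Both had risen from WT to NHD13, by 1.28 ± 0.08 and 1.45 ± 0.08 (edgeR adjusted p = 5.88e-11 and 3.13e-11). The water and gas channel Aqp1 fell from 53.4 to 9.58 CPM (−2.48 ± 0.46, edgeR adjusted p = 0.000909), and the lactate and proton carrier Slc16a1 from 156 to 64.5 CPM (−1.27 ± 0.05, adjusted p = 6.48e-14).

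Ion transporters of the list moved both ways. The anion exchanger Slc4a2 rose from 6.00 to 61.2 CPM between KO and AML (log2 3.35 ± 0.13, edgeR adjusted p = 2.08e-14). The sodium bicarbonate cotransporter Slc4a7 rose from 23.5 to 74.4 CPM (1.66 ± 0.08, edgeR adjusted p = 1.01e-12). The anion exchanger Slc26a6 fell from 5.49 to 3.85 CPM (−0.52 ± 0.15, edgeR adjusted p = 0.0032) and the bicarbonate transporter Slc4a8 from 11.4 to 4.70 CPM (−1.27 ± 0.14, adjusted p = 9.24e-08). The scaffold protein gene Slc9a3r1 rose from 99.9 to 141 CPM (0.50 ± 0.11, edgeR adjusted p = 0.000584). Slc4a1, the anion exchanger of the red cell membrane, was low throughout, at means of 0.291 CPM in WT, 1.11 in NHD13, 1.13 in KO and 2.44 in AML. Its rise from KO to AML was 1.07 ± 0.36 on the log2 scale (edgeR adjusted p = 0.0106).

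**Figure D2:**
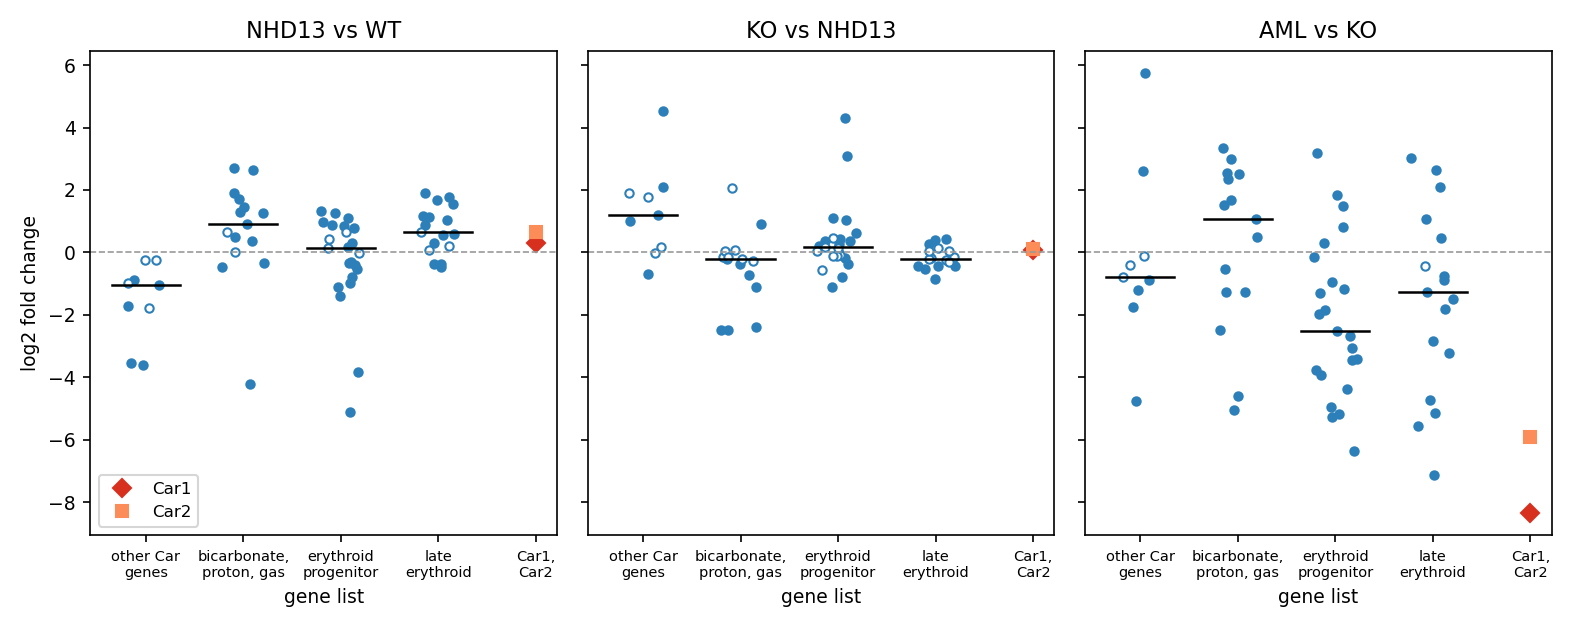
Log2 fold changes in the 3 comparisons for the tested genes of 4 lists and for Car1 and Car2. Each circle is a gene, filled where edgeR's adjusted p was below 0.05 and open where it was not, lines are list medians, and the red and orange symbols of Car1 and Car2 carry no test. Between AML and KO, Car1 lies below every listed gene and Car2 below nearly all.

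Genes of the erythroid progenitor, the stage at which Car1 and Car2 switch on, mostly fell with the pair in AML but did not move as one list before that. Of 23 tested genes, 18 fell and 5 rose between AML and KO (median log2 −2.52), where 39.5% of all genes fell and 42.8% rose. Between NHD13 and WT 9 rose and 10 fell (median 0.13; 25.3% and 28.7% of all genes), and between KO and NHD13 10 rose and 4 fell (median 0.18; 20.6% and 20.3% of all genes). Klf1, the erythroid Krüppel-like activator, fell from 213 to 2.61 CPM in AML (−6.34 ± 0.11, edgeR adjusted p = 5.61e-19). From WT to NHD13 it had risen from 123 to 228 CPM (0.89 ± 0.07, edgeR adjusted p = 7.88e-09). Gata1, the erythroid master regulator, fell from 140 to 3.85 CPM in AML (log2 −5.18, edgeR adjusted p = 2.74e-18), and its WT and NHD13 levels were 110 and 108 CPM (adjusted p = 0.778).

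The biliverdin reductase Blvrb had the same order of groups as Car2, at 212, 378, 435 and 11.2 CPM in WT, NHD13, KO and AML. It rose by 0.83 ± 0.06 and 0.20 ± 0.06 in the HSPC comparisons and fell by 5.28 ± 0.08 on the log2 scale in AML (edgeR adjusted p = 1.36e-09, 0.0127 and 1.95e-19). The antioxidant gene Prdx2 fell by 2.67 ± 0.06 and the transcription factor gene Nfe2 by 0.94 ± 0.08 on the log2 scale in AML (edgeR adjusted p = 1.93e-17 and 1.72e-09). The lipid carrier Apoe was lowest in NHD13 among the HSPC groups, at 793 CPM in WT, 56.4 in NHD13 and 478 in KO. Lmo2, a bridging factor of the GATA complex, was 285 CPM in KO and 258 in AML (−0.15 ± 0.06, edgeR adjusted p = 0.0257). The 5 genes that rose in AML were the transferrin receptor Tfrc (0.82) and the transcription factor genes Lyl1 (3.20), Ldb1 (1.83), Cbfa2t3 (1.50) and Tal1 (0.30, all log2), which other blood cells also use.

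Late erythroid genes, which act in haemoglobin synthesis and the red cell membrane, were far less abundant than Car1 and Car2 in the HSPC groups. Of 17 tested, 11 rose and 3 fell between NHD13 and WT (median log2 0.64), 3 rose and 6 fell between KO and NHD13 (−0.23), and 5 rose and 11 fell between AML and KO (−1.28). Of all genes, 25.3% rose and 28.7% fell in the first comparison, 20.6% and 20.3% in the second, and 42.8% and 39.5% in the third. The alpha-globin gene Hba-a1 was at 65.7, 145, 130 and 2.77 CPM in WT, NHD13, KO and AML. It has near-identical copies between which reads can be split. Its fall in AML was 5.55 on the log2 scale. The erythroid translocator protein gene Tspo2 fell by 5.13 and the ferrochelatase gene Fech by 1.83 on the log2 scale in AML (edgeR adjusted p = 3.27e-17 and 6.16e-14). The mitochondrial iron importer Slc25a37 rose by 3.02 and the nuclear exporter Xpo7 by 2.08 (edgeR adjusted p = 1.79e-11 and 6.33e-15).

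**Figure D3:**
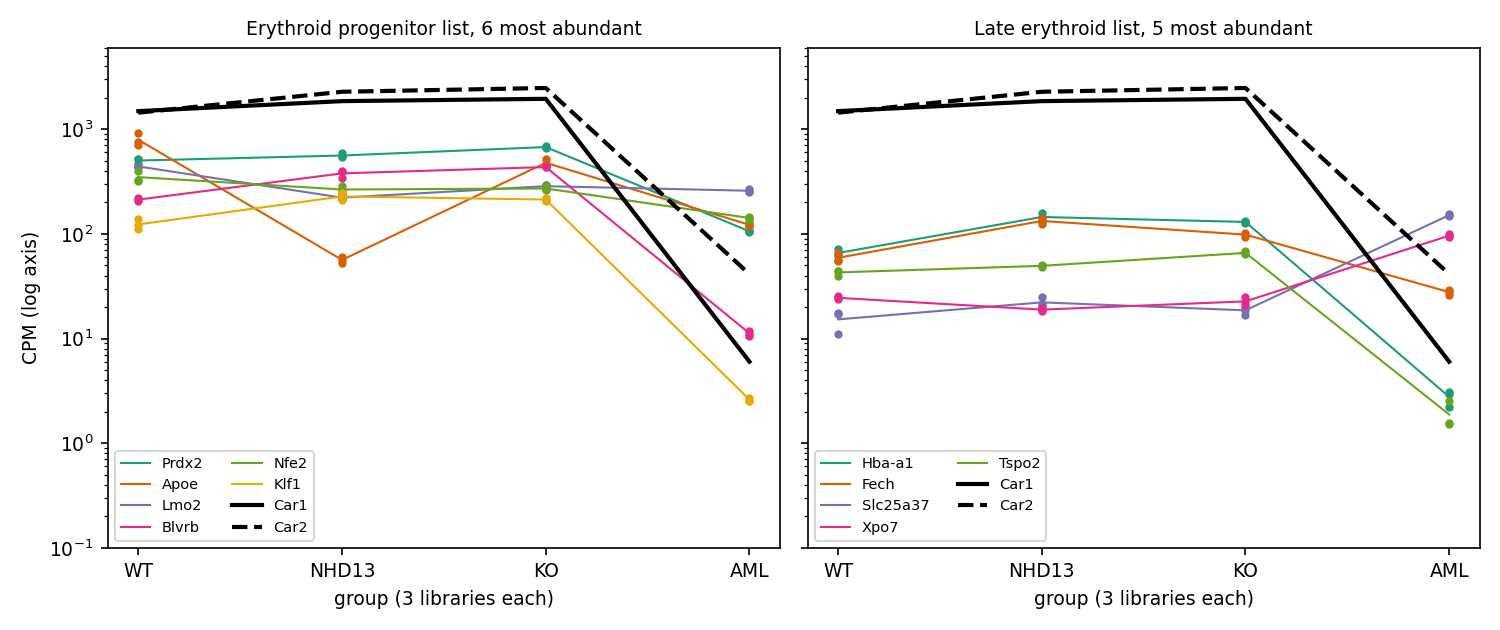
CPM (log axis) of the 6 most abundant genes of the erythroid progenitor list and the 5 most abundant of the late erythroid list in the 4 groups, with Car1 and Car2 in black. Points are libraries and lines join group means. Klf1, Blvrb, Hba-a1 and Tspo2 drop steeply from KO to AML as Car1 and Car2 do, while Lmo2 stays near its KO level and Slc25a37 and Xpo7 are higher in AML.

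Marker lists of other blood cells differed between the same groups. The summed CPM of 12 megakaryocyte markers was 358 to 378 in WT, 53.5 to 60.9 in NHD13, 467 to 474 in KO and 103 to 109 in AML, where Gp6 was at 0. Of 11 tested, 11 fell from WT to NHD13 and 11 rose from NHD13 to KO, beside 28.7% and 20.6% of all genes. From KO to AML 9 fell and 2 rose, beside 39.5% and 42.8%. The summed CPM of 12 mast cell and basophil markers was 592 to 629 in KO, with Fcer1a and Mcpt4 at 0. In AML it was 229 to 238, with Fcer1a, Tpsab1 and Tpsb2 at 0. Of 9 tested, 6 fell and 1 rose from KO to AML (median log2 −0.98), beside 39.5% and 42.8% of all genes. The sum of 11 neutrophil markers was 29377 to 32241 in WT, 145217 to 167563 in NHD13, 56865 to 60409 in KO and 25124 to 25537 in AML. From KO to AML 4 of the 11 fell, among them Mpo and Elane, and 7 rose, among them Ltf and Lcn2 (log2 4.73 and 3.65). Their median log2 difference was 1.17, and of all genes 39.5% fell and 42.8% rose. Osteoclasts use Car2, and the sum of 13 osteoclast markers was 134 to 144 in KO, with Ocstamp and Atp6v0d2 at 0, and 618 to 630 in AML, with Calcr at 0. The 7 B cell markers summed to 62.0 to 66.8 in KO and 21.5 to 22.8 in AML. In AML the osteoclast sum was mostly Tcirg1 (267 CPM) and Mmp9 (241 CPM), which other myeloid cells also express. Of 10 osteoclast markers tested, 9 rose and 1 fell from KO to AML (median log2 1.45), beside 42.8% and 39.5% of all genes. The 1 that fell was Acp5, from 15.6 to 4.07 CPM. Ctsk, Oscar, Dcstamp and Atp6v0d2 were below 1 CPM, and Ctsk and Dcstamp were among those that rose. Both members were high in the NHD13 libraries, where the neutrophil sum was highest and the megakaryocyte sum lowest. The part of these cell types in the Car1 and Car2 levels was not tested.

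Genes with the profile most like that of Car1 and Car2 over the 12 libraries had a smaller drop in AML. By Pearson's r of log2(CPM + 1), the nearest of 9198 candidates were Dad1 (r = 0.999), Mrpl42, Pdcd6, Erh, Psma3 and Brix1, and 617 genes had r above 0.99. For Car2 they were Prdx6 (r = 0.999), Atp5g1, Snrpa1, Atp5b, Uqcr11 and Hacd1, with 477 genes above 0.99. Most of the range behind these values lies between AML and the 9 HSPC libraries. Dad1, a subunit of the oligosaccharyltransferase, had means of 438 CPM in KO and 70.6 in AML, and the peroxiredoxin Prdx6 of 1377 and 192 CPM. Ranking by Spearman's rho named none of these genes among its own 6 for either member. Car1 and Car2 themselves had r = 0.996 over 12 libraries and r = 0.953 over the 9 HSPC libraries. The points share their groups and library depths.

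The genes around the pair did not all share its drop in AML. Car1 and Car2 span 134557 bases, and 77903 bases lie between them, where Car3 and the lncRNA gene Gm41999 sit. Within 500 kb the annotation lists 19 other genes, of which 17 were in the table and 7 passed the filter. Between AML and KO 6 of the 7 fell and 0 rose, between KO and NHD13 3 rose and 1 fell, and between NHD13 and WT 1 rose and 3 fell. Of all genes, 82.4%, 40.9% and 54.0% were called in these comparisons, and 39.5% fell in the first. Gm5843, a pseudogene 37196 bases from Car1, had 56 counts in KO and 0 in AML, which is at least 20.4-fold lower with AML set to that floor. The ribosome biogenesis factor Rbis, listed as 1810022K09Rik, fell by 2.91 ± 0.09 on the log2 scale (edgeR adjusted p = 3.9e-16). The cell cycle transcription factor gene E2f5 fell by 1.38 ± 0.14, Gm9733 by 0.99 ± 0.13 and the centrosomal gene Lrrcc1 by 0.20 ± 0.08 (edgeR adjusted p = 4.29e-08, 1.78e-06 and 0.0235). Car3, the gene between the pair, was not called. The fitted drops of Car1 and Car2 thus exceeded that of each tested neighbour with counts in AML.

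E2f5 and the cluster members Car3 and Car13 shared another pattern, lower in NHD13 than in WT and higher again in KO. E2f5 was 9.86 ± 1.54 CPM in WT, 5.84 ± 0.594 in NHD13 and 12.1 ± 1.41 in KO (SD, n = 3), with log2 differences of −0.75 ± 0.14 and 1.04 ± 0.14 (edgeR adjusted p = 0.000213 and 9.14e-06). Gm9733 ran the other way, from 2.56 CPM in WT to 25.6 in NHD13 and 6.72 in KO. Car1 and Car2 had neither pattern in CPM. In FPKM the Car1 mean was lowest in NHD13 among these groups (1270, 1211 and 1451 in WT, NHD13 and KO), with WT and NHD13 libraries overlapping.

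DNA methylation in the cluster was read from the authors' tables of differentially methylated regions, which give the mean methylation of each region in 1 bisulfite library per group. No replicate error can be given, and coverage is unknown. Within 100 kb of the pair, the NHD13 against WT table held 7 regions, 5 of them higher in NHD13, although only 18.4% of all 58684 regions of the table were higher there. The KO against NHD13 table held 8, of which 7 were higher in KO, beside 77.6% of 37430 in the whole table. The AML against KO table held 7, of which 4 were higher in AML, beside 22.2% of 106032. A region lay over at least 1 base of 45.6%, 38.3% and 47.7% of protein-coding genes in the 3 tables, and of 47.5%, 38.1% and 49.2% of those with bodies of 10 to 50 kb, as Car1 and Car2 have. Car1 held 1, 1 and 0 regions and Car2 held 2, 2 and 0.

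Car2 held the longest region of the window. A region of 4153 bases with 76 CpG sites, chromosome 3, 14887878 to 14892030, began 1609 bases inside the lower-coordinate end of Car2, where its transcription starts. Its methylation was 15.2% in WT and 57.2% in NHD13, a difference of 42.0 percentage points. Only 0.0256% of the regions of that table were as long, and 5.40% differed by as much. A second region within Car2, 14892286 to 14892634 with 9 CpG sites, went from 40.6% in WT to 80.8% in NHD13. Car2 RNA was not lower in NHD13 than in WT but 1.58-fold higher. Between NHD13 and KO, 2 shorter regions inside the long one went in opposite directions. The one at 14889802 to 14890038 (6 CpG sites) was 73.2% in NHD13 and 41.3% in KO, and the one at 14891639 to 14892030 (18 CpG sites) was 49.4% in NHD13 and 80.6% in KO.

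Car1 had 1 small region, 14806063 to 14806182 with 6 CpG sites, 2183 bases inside its higher-coordinate end, where its transcription starts. It was listed with the same bounds in both tables, at 90.0% in WT, 51.4% in NHD13 and 82.4% in KO. Car1 RNA was 1488, 1854 and 1951 CPM in those groups and 1270, 1211 and 1451 in FPKM, 2 scales on which the NHD13 value has a different place among the groups. Between KO and AML no region lay over Car1 or Car2, the comparison in which both RNAs differed most. The nearest was 284 bases beyond the higher-coordinate end of Car1, 14808649 to 14808852 with 8 CpG sites, at 63.7% in KO and 87.3% in AML.

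The largest methylation differences of the window between KO and AML lay at Car3, whose RNA was not called in that comparison. A region of 64 CpG sites, 14862538 to 14863549, over Gm41999 and the lower-coordinate end of Car3 went from 65.2% in KO to 95.2% in AML. Within Car3, 14870096 to 14870715 (32 CpG sites) went from 45.0% to 8.62%, and 14869368 to 14869737 (10 CpG sites) from 58.7% to 28.3%. Beside the first of these, 14862401 to 14862842 was 25.3% in WT and 53.1% in NHD13, and 14862809 to 14863316 was 24.8% in NHD13 and 61.7% in KO. Between Car3 and Car2, 14878972 to 14879246 was 15.2% in WT and 49.6% in NHD13, and 14879559 to 14879871 was 50.1% in NHD13 and 77.5% in KO.

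**Figure D4:**
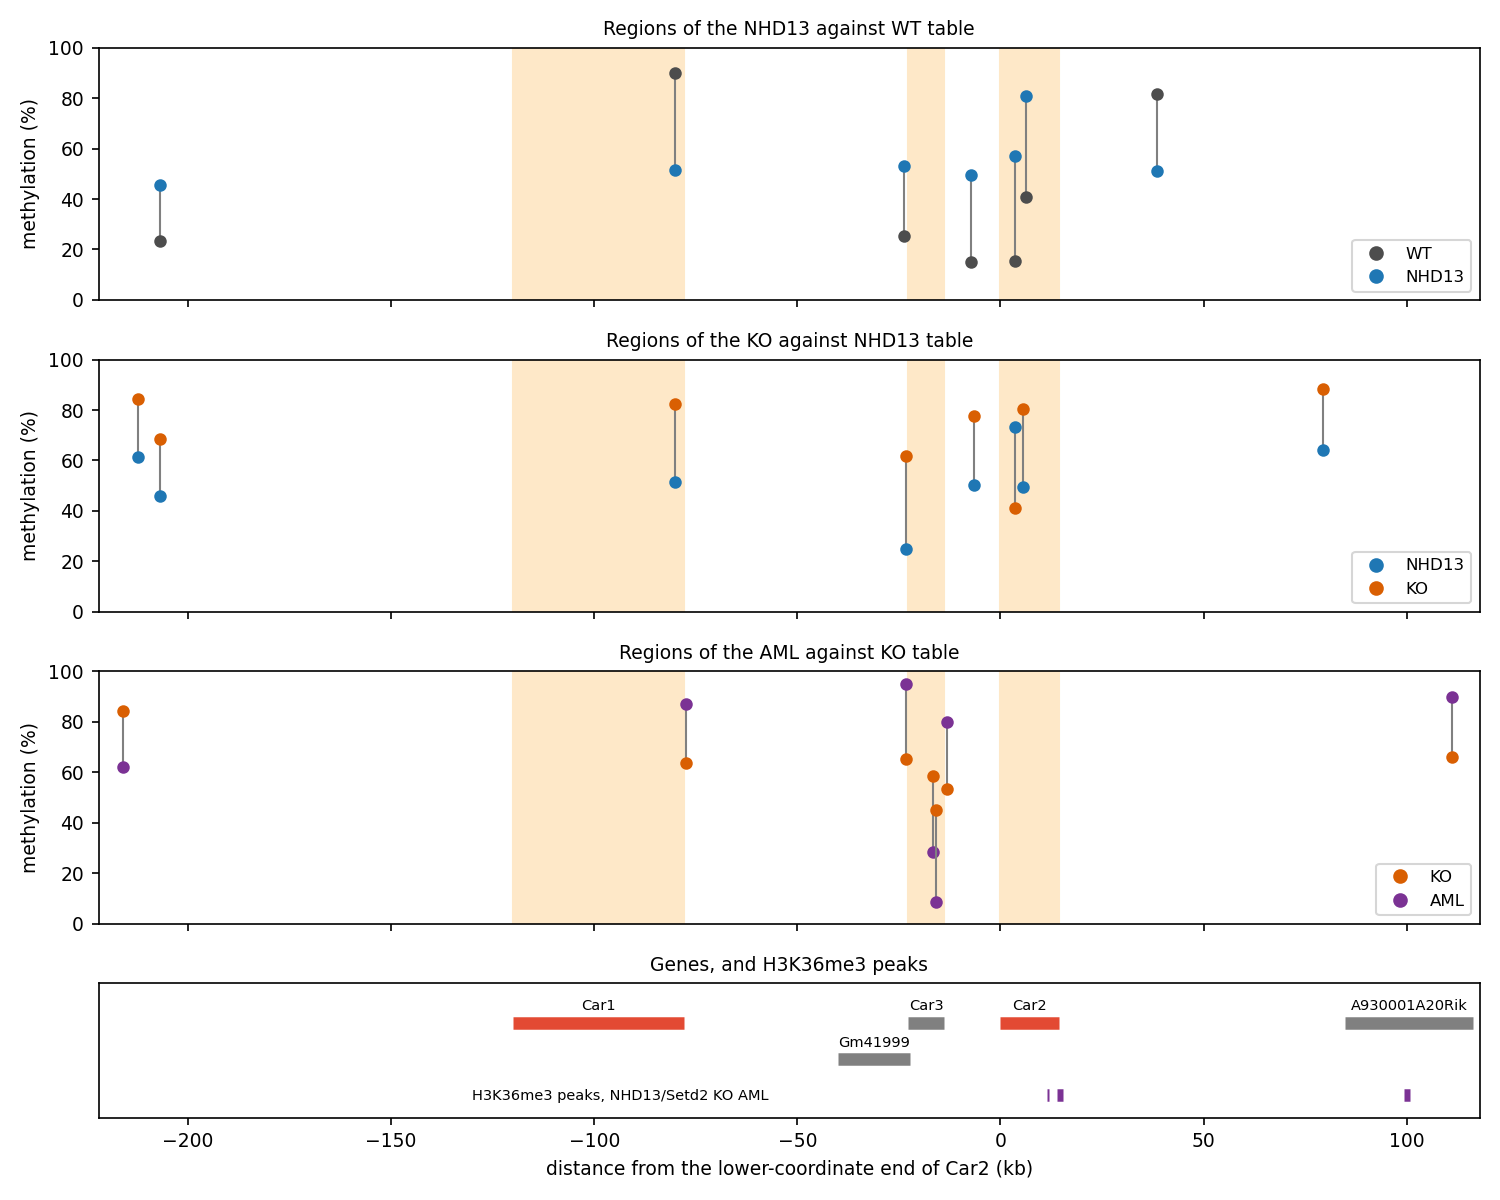
Differentially methylated regions within 100 kb of Car1 and Car2, at their distance from the lower-coordinate end of Car2, with 1 panel per table, and below them the genes and the H3K36me3 peaks. Points give a region's methylation in the 1 library of each group, lines join both values, and shaded bands are Car1, Car3 and Car2. Both Car2 regions of the first table are higher in NHD13, no region of the third table lies over Car1 or Car2, and 2 peaks lie over the higher-coordinate part of Car2.

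H3K36me3, the mark placed by Setd2 along transcribed gene bodies, was compared between the peak lists of the 2 leukemic libraries, each called by the authors on 1 library. Neither library had a peak over Car1. Over Car2 the NHD13 AML library had no peak and the NHD13/Setd2 KO AML library had 2. One was 14897778 to 14898240, with a fold enrichment of 6.01 and a −log10 q of 6.53, a value that 95.2% of peaks in its list did not exceed. The other was 14900096 to 14901692, across the higher-coordinate end of Car2. Its fold enrichment was 4.92 and its −log10 q was 4.41, a value that 52.6% of peaks in that list did not exceed. Together they covered 1138 bases, 7.85% of the gene. These scores are the authors' values for each peak.

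The direction at Car2 was the rarer one. The NHD13 AML list was longer, with 30953 peaks of median length 2503 bases against 16902 of median length 1101 bases. At least 1 peak lay over 45.4% of protein-coding genes in NHD13 AML and over 28.4% in NHD13/Setd2 KO AML. A peak in the KO AML list with none in the NHD13 AML list was found for 1.11% of protein-coding genes, 243 of 21887, and for 0.765% of those with bodies of 10 to 50 kb. With 1 library each there is no replicate check, and RNA of the NHD13 AML cells was not analysed here, so no Car2 level can be set beside the peak difference. One further peak of the KO AML list lay within 100 kb, over the lncRNA gene A930001A20Rik, at a −log10 q of 3.48.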

How the data were processed

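RNA was measured in 12 libraries of 4 groups of 3, methylation in 4 bisulfite libraries and H3K36me3 in 2 ChIP libraries. Members and gene lists were chosen with earlier results of these data known. Per the submitters' processing notes, tools included HISAT2 2.0.5, HTSeq 0.9.1, Bismark 0.19.0, Bowtie2 2.2.9 and MACS2 2.1.1.20160309, with build mm10. The region caller, its coverage minimum and the ChIP input are not stated there.

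The authors deposited raw read counts per gene and FPKM, which equalled count divided by length and column total. The deposited region tables give methylation as a fraction per group, shown here as percent, and a test score that was not used. Which column belongs to which group was checked on regions shared between tables. The deposited peak lists give a score, a fold enrichment and −log10 p and q values per peak.

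Counts were fitted in 1 model of 12 libraries with edgeR 4.0.16 (R 4.3.3; filterByExpr, TMM, robust quasi-likelihood test, Benjamini-Hochberg adjusted p below 0.05), tested first on simulated data. CPM used TMM-scaled library sizes of tested genes. Overlaps needed 1 base. Gene positions came from RefSeq on GRCm38.p6. Genes named were the members, tested relatives and neighbours within 500 kb, the 6 nearest profiles, and the 6 most abundant genes of each list, of which 1 is not reported here. Gata1, Slc4a1, Slc4a2, Slc4a8, Slc26a6, the abundant genes low in AML and the progenitor genes that rose in AML were chosen after their values were seen. Alternatives were other scalings, DESeq2 1.42.0, limma 3.58.1 on log2(FPKM + 1), no filter, a replicate block, only the groups compared, each replicate left out, and other windows and cutoffs.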

Additional observations from a re-analysis of the deposited data

How the results depend on the processing

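Car1 and Car2 lay below KO in AML in every fit, at −8.41 to −8.25 and −5.95 to −5.83 on the log2 scale when 1 replicate was left out. Upper-quartile scaling gave −8.53 and −6.09, limma on log2(FPKM + 1) gave −7.71 and −5.43, and subtracting the trend with gene length, chosen after seeing the data, gave −7.45 and −5.58. NHD13 against WT ranged from 0.23 to 0.43 for Car1 and 0.60 to 0.77 for Car2 with a replicate left out, and was −0.076 and 0.27 on log2(FPKM + 1). KO against NHD13 ranged from −0.028 to 0.18 and 0.03 to 0.20, and was 0.27 and 0.31 on log2(FPKM + 1). The cause of these shifts was not tested.

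Other carbonic anhydrases called with a replicate left out numbered 5 to 6, 4 to 5 and 7 in the 3 comparisons, and 8 between NHD13 and WT on log2(FPKM + 1). All genes called then numbered 8174 to 9131, 5756 to 6339 and 13128 to 13347. The median of all genes between AML and KO was −0.11 under upper-quartile scaling and 0.21 on log2(FPKM + 1), against 0.07. On log2(FPKM + 1) the higher share of calls was 16.9%, 71.9% and 63.0%, against 46.9%, 50.3% and 52.0% with edgeR. Replicate numbers did not pair libraries: same-numbered deviations had r from −0.417 to 0.582, 4 of 18 pairs were over 0.1, and 2 of 12 libraries were closest to their own number. A replicate block gave 8568, 6431 and 13238 calls.

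Regions near the pair numbered 4 in the NHD13 against WT table with at least 10 CpG sites. In the KO against NHD13 table they numbered 4 with a difference of at least 0.3 and 5 within 50 kb, and there were 2 and 3 between AML and KO with those limits of difference and CpG sites. H3K36me3 peaks numbered 2 in NHD13 AML within 200 kb and 1 in KO AML at a −log10 q of at least 5. Spearman's rho kept 0 of the 6 nearest genes of either member. Depth limits Car1 in AML to at most 157 counts per library, and the methylation values to 1 library of unknown coverage.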
